A study of Mus musculus with 6 samples.

Results

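Hox genes were taken as every listed gene whose symbol consists of Hox, a cluster letter from a to d and a number. This rule, which used no expression value, found 36 of the 17778 genes listed, of which 11 belong to the HoxA cluster, 9 to HoxB, 7 to HoxC and 9 to HoxD. *Hoxb1*, *Hoxc12* and *Hoxc13* were not analysed here. Hox genes encode homeodomain transcription factors that give cells their position along the head-to-tail axis. They lie in clusters, and genes at the same place in different clusters, which descend from the same ancestral gene, share a paralogue number. Genes with low numbers are expressed towards the front of the embryo and genes with high numbers towards its tail end. The adult gut keeps much of this order in its mesenchyme and nerves, and some high-numbered genes, *Hoxb13* among them, mark the lining of the distal colon.

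Colon RNA came from 3 obesity-prone (OP) and 3 obesity-resistant (OR) mice, each sequenced as a library of its own. All 6 were wild-type C57BL/6J males that had been on a high-fat diet with 60% fat for 16 weeks and were 21 weeks old at the end. OP and OR were the 10 mice with the most and the 10 with the least weight gain among 42 mice fed this diet, so the groups differ in outcome on a shared diet and not in an assigned treatment. Which stretch of the colon each sample came from is not given in the sources used here. Expression was given as FPKM, fragments scaled for transcript length and for the mapped total of the mouse, a level per length that allows genes to be compared with each other. The values summed to between 585350 and 600028 per mouse, with 16287 to 16619 genes above 0. The sequencing depth is unknown, because FPKM carry no read totals. Hox genes above 0 numbered 28 in OP mouse 2 and between 30 and 35 in the other mice, and 24 of the 36 reached 0.5 FPKM in 3 or more mice and could be tested. OP mouse 2 stood apart from the other 5 mice in its Hox genes, so the comparisons of OP with OR are given with and without it.

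The tissue label was checked against marker genes. *Cdx1* and *Cdx2*, transcription factors of the gut lining, had FPKM of 146.84 to 220.66 and 179.5 to 245.73. Of 7 small intestine genes, *Gata4* and *Lct* did not exceed 0.49 and 0.05, but others were present, with *Slc10a2* at up to 88.76, *Fabp6* at up to 74.19, *Lyz1* at up to 21.07 and *Sis* at up to 10.06. The list summed to 7.07 in OP mouse 2 and to 56.79 to 180.97 in the other mice. Squamous epithelium, as in the anal canal, was near 0, since its 6 markers summed to 0.63 to 1.25 and its defining genes *Krt5* and *Trp63* were listed at 0 in OP mouse 2.

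The promoters of 3 genes that differed between OP mouse 2 and the other mice are printed here to show where they lie, 1 from each cluster with tested genes. Each is the gene with the largest ratio in its cluster among those with a single RefSeq promoter window whose start was found among annotated transcripts. This left out *Hoxd10*, 124-fold below the median of the other 5 mice, whose start was not found. It also left out *Hoxb13*, which had no matched window. Promoter windows of 21 of the 36 Hox genes were matched by symbol in RefSeq, 23 windows in all, on the GRCm38.p6 build. The methods and the labels describe the gene set behind the expression values differently, and the methods name a later build, so no coordinates are given for these values. Each sequence covers the 250 bases before the start of transcription, written 5′ to 3′ on the gene's strand, and capitals mark motifs bound by Cdx and Hox9 to Hox13 proteins.

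*Hoxa13*, chr6:52260881-52261130, minus strand: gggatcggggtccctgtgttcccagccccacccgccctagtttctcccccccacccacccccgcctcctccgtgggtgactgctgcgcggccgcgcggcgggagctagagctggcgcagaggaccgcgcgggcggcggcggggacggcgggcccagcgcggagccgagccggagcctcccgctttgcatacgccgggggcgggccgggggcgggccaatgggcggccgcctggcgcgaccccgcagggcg
*Hoxb8*, chr11:96281655-96281904, plus strand: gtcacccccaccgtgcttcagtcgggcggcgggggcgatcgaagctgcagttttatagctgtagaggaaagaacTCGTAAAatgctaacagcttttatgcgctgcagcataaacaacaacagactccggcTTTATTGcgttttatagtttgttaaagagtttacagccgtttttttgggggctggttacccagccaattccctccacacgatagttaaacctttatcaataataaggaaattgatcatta
*Hoxd9*, chr2:74697513-74697762, plus strand: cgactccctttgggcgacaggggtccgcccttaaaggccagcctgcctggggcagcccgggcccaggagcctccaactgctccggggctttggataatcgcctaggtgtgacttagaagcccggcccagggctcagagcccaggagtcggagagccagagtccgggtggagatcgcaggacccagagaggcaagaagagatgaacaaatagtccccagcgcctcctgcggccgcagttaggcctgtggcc

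The motifs searched on both strands were CAATAAA and TCGTAAA. In the *Hoxb8* window each occurs once, CAATAAA on the minus strand and TCGTAAA on the plus strand, and they do not overlap. Neither occurs in the other two windows. Over all 32851 mouse promoter windows, 4.20% held CAATAAA, 0.478% held TCGTAAA and 4.65% held either, against 1 of the 23 Hox windows (4.35%). The windows also differ in base composition. G and C make up 80% of the *Hoxa13* window, 65.2% of the *Hoxd9* window and 44.4% of the *Hoxb8* window.

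In 5 of the 6 mice, Hox expression in the colon came mainly from HoxB, followed by HoxA and HoxD in an order that differed between mice, with almost none from HoxC. The summed FPKM of all Hox genes was 154.13, 260.63 and 348.27 in OP mice 1, 2 and 3 and 325.78, 174.17 and 310.22 in OR mice 1, 2 and 3. These totals overlapped between the groups (254 ± 97.2 in OP and 270 ± 83.4 in OR, mean ± SD, n = 3). HoxB genes made up 65.3% to 81.8% of the sum in the mice other than OP mouse 2, HoxA genes 8.13% to 23.5% and HoxD genes 9.45% to 11.8%. In OP mouse 2 the order was different. HoxA made up 65.5%, HoxB 33.7% and HoxD 0.694% of its Hox FPKM. HoxC genes made up at most 0.805% in any mouse.

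**Figure D1:**
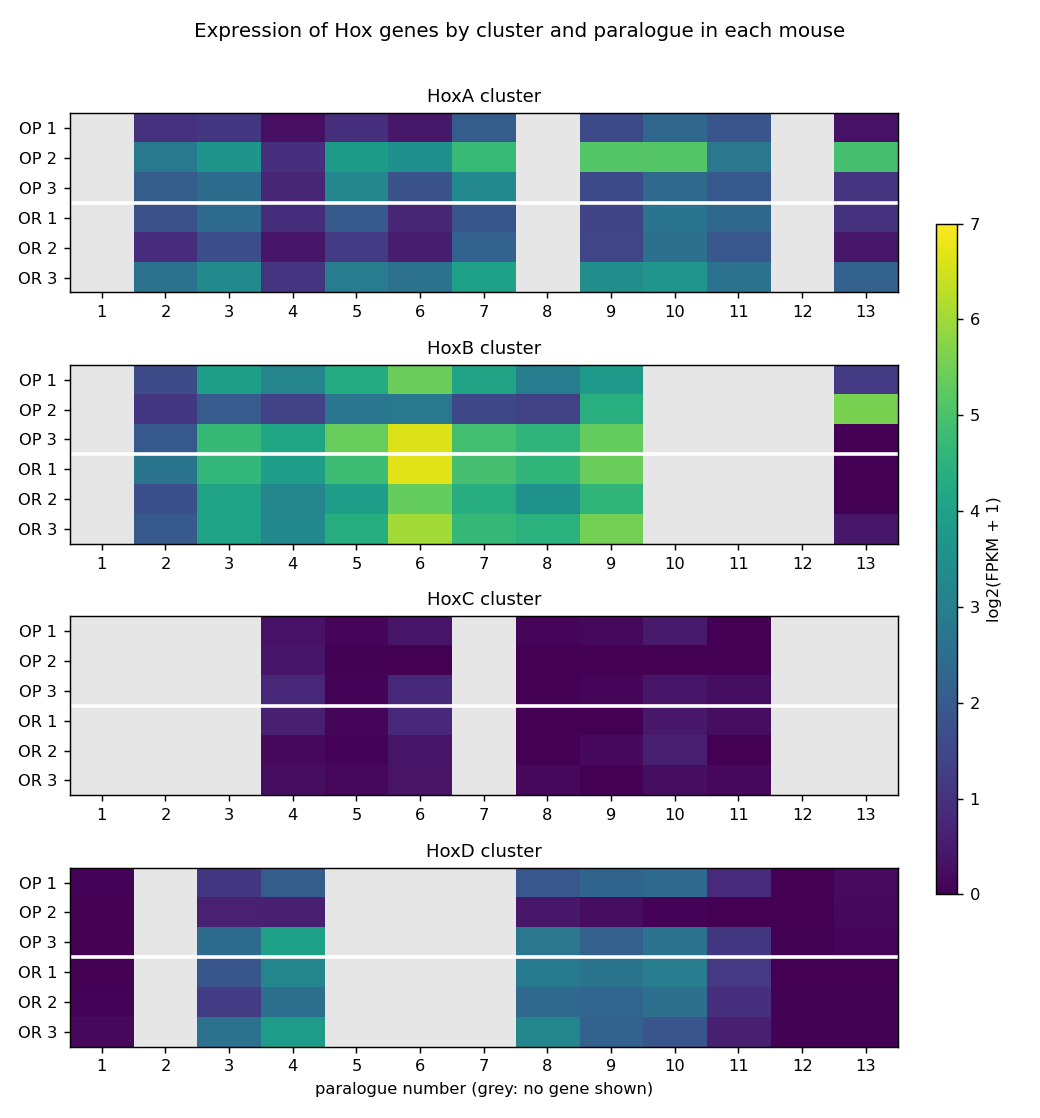
Expression of Hox genes as log2(FPKM + 1) in each mouse (rows, OP above the white line and OR below it), by cluster (panels) and paralogue number (horizontal axis), with grey where no gene is shown. OP mouse 2 is bright along HoxA and at *Hoxb13* (46.88 FPKM) and dark along HoxD, while *Hoxb6* is the brightest gene of the other mice (39.96 to 101.56 FPKM).

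By paralogue number, paralogues 5 to 8 held most of the Hox expression in the mice other than OP mouse 2, with 53.3% to 61.7% of the Hox FPKM. Paralogues 1 to 4 held 19.3% to 20.95%, a narrow range. Paralogue 6, mostly *Hoxb6*, took 22.6% to 31.6% and paralogue 9 took 11.9% to 18.9%. Paralogue 13, the tail end of the series, took 0.224% to 1.28%. OP mouse 2 lay outside these ranges, with 9.94% for paralogues 1 to 4, 24.7% for 5 to 8 and 29.4% for paralogue 13 alone. Paralogue 10 took 13.1% of its Hox FPKM, against 2.89% to 6.00% in the other mice, and paralogue 8 took 0.733%, against 6.12% to 9.53%. The share of paralogues 9 to 13, called the posterior share here, was 20.9%, 65.4% and 17.4% in OP mice 1, 2 and 3 and 20.7%, 24.9% and 26.7% in OR mice 1, 2 and 3.

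The groups therefore overlapped in the posterior share, with 34.6% ± 26.8 in OP and 24.1% ± 3.08 in OR (SD, n = 3), and the higher OP mean rested on 1 mouse. Without OP mouse 2 the OP mean was 19.1%, 4.96 percentage points below OR. The FPKM-weighted mean paralogue number, which averages the paralogue number of the Hox genes with their expression as weight, ordered the mice nearly the same way. It was 6.33, 9.04 and 6.17 in OP mice 1, 2 and 3 and 6.36, 6.52 and 6.62 in OR mice 1, 2 and 3. OP and OR differed by 0.68 with all mice (7.18 ± 1.62 and 6.499 ± 0.128, SD, n = 3) and by -0.25 without OP mouse 2. In that mouse the shift was not alike in all clusters. Its mean paralogue number was 10.2 within HoxB, where the other mice lay between 5.91 and 6.54. Of the 87.84 FPKM of HoxB in that mouse, 46.88 came from *Hoxb13*. Within HoxA its mean paralogue number was 8.49, where the other mice lay between 6.41 and 7.97. Within HoxD it was 5.81, below the 5.92 to 7.80 of the other mice, though on a HoxD sum of only 1.81 FPKM. No test was made of these scores, which are computed over genes picked for their family.

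**Figure D2:**
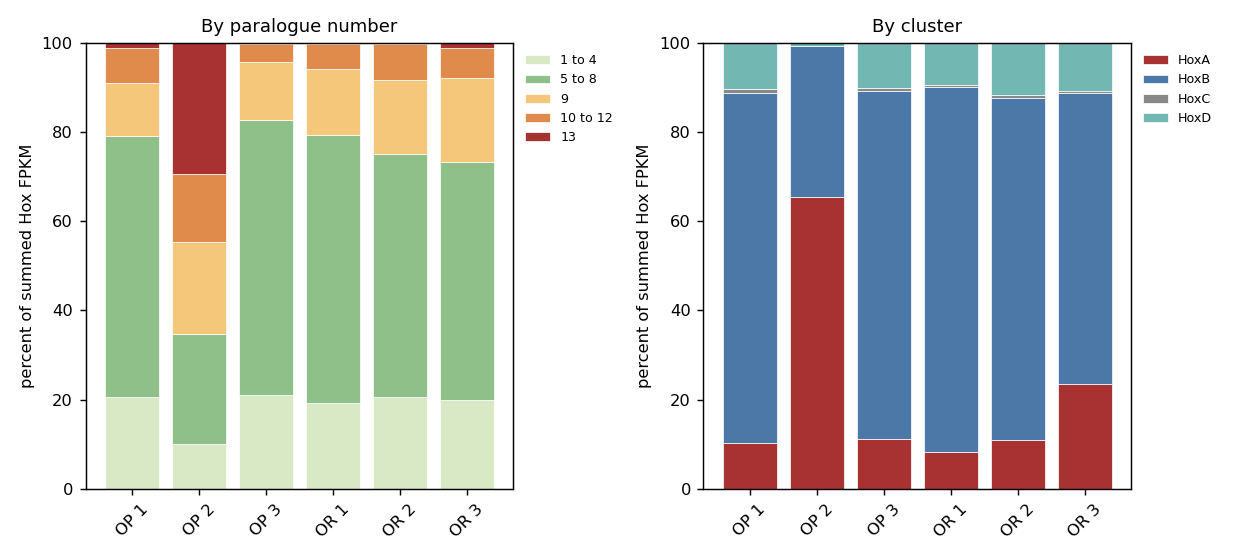
Percent of the summed Hox FPKM in each mouse, by paralogue number (left) and by cluster (right), with 1 stacked bar per mouse. Paralogue 13 takes 29.4% in OP mouse 2 and at most 1.28% in the other 5 mice, and HoxA takes 65.5% against at most 23.5%.

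Among the 24 Hox genes tested, 0 were called by limma-trend, where a call needed a q-value under 0.2 together with a fold of 1.2 or more, or of 0.83 or less. Of all 13520 genes tested, 0.0222% did. At an unadjusted p below 0.05, 0 Hox genes were higher in OP mice, against 0.503% of all genes, and 0 were lower, against 3.53%. Over all genes these shares stand for 68 higher and 477 lower, which became 153 and 423 with median-of-ratios scaling. All 24 q-values (Benjamini-Hochberg over all genes) were at least 0.945. By direction, 7 Hox genes were higher and 17 lower in OP, and their median log2 fold change OP/OR was -0.38 against -0.10 for all genes. Of all genes tested, 70.1% were likewise lower in OP. With median-of-ratios scaling the medians were -0.30 and 0.01, with 16 of the 24 Hox genes and 48% of all genes lower. No tested Hox gene had all OP mice above all OR mice, as 1.63% of all genes did, or all below, as 6.81% did. The p-values measure the spread between these mice. In bulk tissue, fewer cells that express a gene and less RNA per cell cannot be told apart.

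Without OP mouse 2, again 0 of the 24 Hox genes were called, and the lowest q-value was 0.770 (limma-trend, Benjamini-Hochberg). At an unadjusted p below 0.05, 0 were higher (1.28% of all 13405 genes tested) and 0 were lower (4.59%). The median log2 fold change was -0.19, against -0.12 for all genes, with 6 Hox genes higher and 18 lower. The sign turned in 11 of the 24 genes. Of all genes, 68.7% were lower in this fit. By paralogue class, with all mice, 1 of the 8 tested genes of paralogues 1 to 4 was higher in OP and 7 were lower (median -0.53). In paralogues 5 to 8, 3 were higher and 5 lower (median -0.66), and in paralogues 9 to 13 likewise 3 and 5 (median -0.18). Each class had 2 higher and 6 lower without OP mouse 2, with medians of -0.20, -0.09 and -0.47.

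Of the markers of other cell types, those of fibroblasts did not overlap between the groups in their sum. Gene by gene, *Pdgfra*, *Pdgfrb*, *Thy1* and *Lum* overlapped and the other genes of the list did not. Of all genes tested, 6.81% had all OP mice below all OR mice. Of 11 fibroblast markers tested, 11 were lower in OP mice (70.1% of all genes), 7 of them at an unadjusted p below 0.05 (3.53% of all genes) and 0 at a q-value below 0.2, and none of the 12 on the list was at 0 in every mouse. The summed FPKM of the list was 134.59 to 235.89 in OP mice and 333.28 to 587.61 in OR mice, with the lowest sum in OP mouse 2. Without that mouse 11 were lower, 6 of them at an unadjusted p below 0.05. The sums of the other 3 lists overlapped between the groups, and with all mice 0 of their genes had an unadjusted p below 0.05. All 10 smooth muscle markers were lower in OP (median log2 fold change -0.34), *Acta2* and *Mylk* without overlap. Of the enteric neuron and glia markers 8 were higher and 4 lower, and of the epithelial markers 9 and 3. Without OP mouse 2, 2 smooth muscle markers and 1 of enteric neurons and glia were lower at an unadjusted p below 0.05 (4.59% of all genes). Of the epithelial markers 0 were. Smooth muscle markers summed to 2002 to 2886 in OP and 2387 to 4345 in OR, and enteric neuron and glia markers to 42.25 to 91.52 and 48.94 to 98.08. Epithelial markers summed to 13231 to 16411 in OP and 13399 to 15637 in OR. The part of these cell types in the Hox values was not tested.

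**Figure D3:**
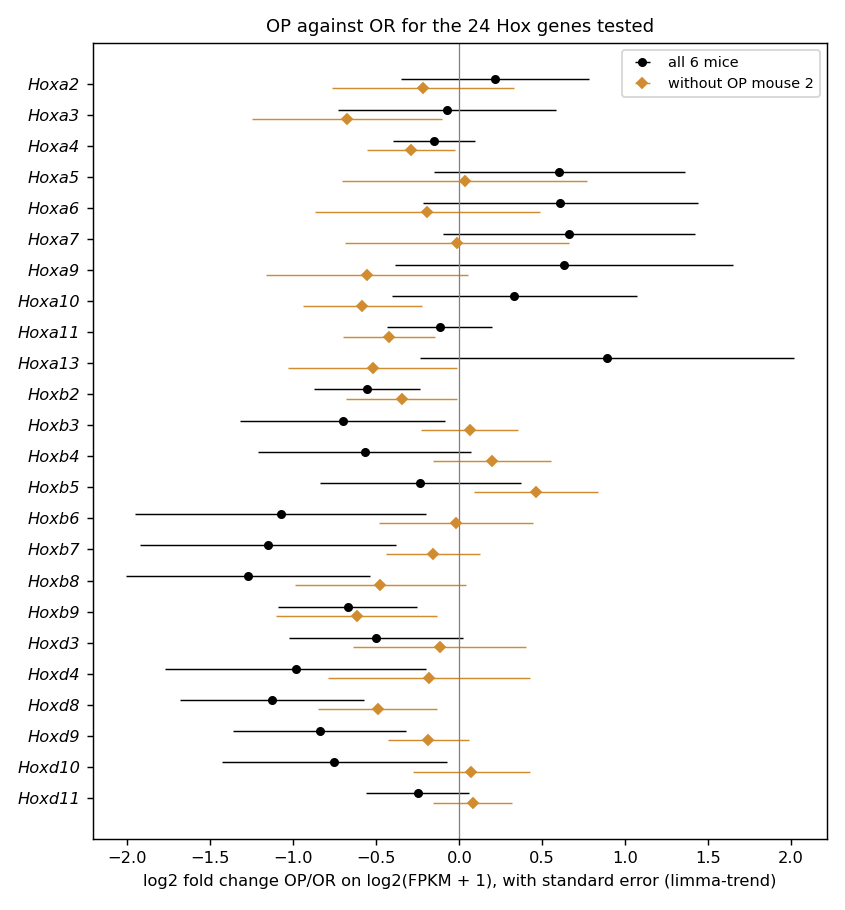
Log2 fold change OP/OR of the 24 tested Hox genes (dots) with the standard error (lines) from limma-trend on log2(FPKM + 1), with all 6 mice (black) and without OP mouse 2 (orange). With all mice 7 HoxA genes lie right of 0 and all HoxB and HoxD genes left of it, and without OP mouse 2 the sign of 11 genes turns.

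HoxA was the cluster with the highest summed FPKM in OP mouse 2. In OP against OR, 7 of its 10 tested genes were higher and 3 lower (median log2 fold change 0.47, 0 with a q-value below 0.2), while 1 was higher and 9 were lower once OP mouse 2 was left out (median -0.36). *Hoxa13*, needed for the hindgut and for the digits of the limb, had 0.27, 29.54 and 1.07 FPKM in OP mice 1, 2 and 3 and 1.03, 0.36 and 3.58 in OR mice 1, 2 and 3. OP mouse 2 had 28.7 times the median of the other 5 mice, and the remaining OP mice lay within the range of the OR mice or below it. The groups overlapped, with 10.3 ± 16.7 in OP and 1.66 ± 1.70 in OR (FPKM, SD, n = 3). On the log2 scale OP exceeded OR by 0.89 ± 1.13 (standard error, limma-trend, adjusted p = 0.945), and the difference was -0.52 without OP mouse 2. The two-sided exact permutation p was 0.8. With 20 arrangements of 6 mice, this test cannot go below 0.1.

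*Hoxa9* and *Hoxa10* shared the 2 highest mice with *Hoxa13*. *Hoxa9*, which also acts in blood stem cells, had 1.92, 33.75 and 1.97 FPKM in OP mice and 1.70, 1.75 and 9.94 in OR mice, in the order of their numbers, here and for the genes that follow. *Hoxa10*, known from the uterus and the limb, had 4.09, 34.12 and 4.37 in OP and 5.43, 4.95 and 11.6 in OR. For both genes OP mouse 2 was highest and OR mouse 3 next, and the other 4 mice lay close together. *Hoxa11*, a partner of *Hoxa10* in limb and uterus, ranged less, with 2.58, 5.89 and 2.77 in OP and 4.16, 2.72 and 5.21 in OR. The log2 fold changes were 0.63 (standard error 1.02) for *Hoxa9*, 0.33 (0.74) for *Hoxa10* and -0.12 (0.32) for *Hoxa11*, none larger than its error. They were -0.56, -0.58 and -0.42 without OP mouse 2.

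Of the middle HoxA genes, *Hoxa7* had 3.22, 25.19 and 8.80 FPKM in OP mice and 2.68, 3.64 and 15.05 in OR mice. *Hoxa6* had 0.36, 10.52 and 2.48 in OP and 0.67, 0.51 and 5.10 in OR, and *Hoxa5*, best known from lung development, had 0.93, 12.94 and 8.38 in OP and 2.93, 1.37 and 6.74 in OR. In all 3 genes OP mouse 2 was highest, at 6.92, 15.7 and 4.42 times the median of the other mice. Their log2 fold changes were 0.66, 0.61 and 0.60 with standard errors of 0.76, 0.83 and 0.76, and -0.01, -0.19 and 0.03 without OP mouse 2.

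Among the front HoxA genes, *Hoxa3*, which patterns the pharyngeal arches and the thymus, had 1.19, 11.24 and 4.59 FPKM in OP and 4.41, 2.19 and 9.15 in OR. *Hoxa2*, a hindbrain and second arch gene, had 0.99, 6.14 and 3.22 in OP and 2.36, 0.84 and 5.22 in OR. OP mouse 2 was again highest in both, though OR mouse 3 came close. *Hoxa4* lay between 0.22 and 1.10 and was the exception in the cluster, with its highest value in OR mouse 3. The log2 fold changes were 0.21 (standard error 0.57) for *Hoxa2*, -0.08 (0.66) for *Hoxa3* and -0.15 (0.25) for *Hoxa4*, and that of *Hoxa3* turned to 0.02 with median-of-ratios scaling. Leaving out OP mouse 2 gave -0.22, -0.68 and -0.29. In the RefSeq table *Hoxa3* overlaps *Hoxa4*, *Hoxa5* and *Hoxa6*, so how fragments were shared among these genes is uncertain.

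HoxB held the highest single levels. On the log2 scale all 8 of its tested genes were lower in OP than in OR (median log2 fold change -0.69, 0 with a q-value below 0.2). Once OP mouse 2 was left out, 3 were higher and 5 lower (median -0.09). The mean FPKM of *Hoxb5* was 21.5 in OP and 20.4 in OR. *Hoxb6*, the Hox gene with the highest mean, had 41.11, 6.11 and 97.24 FPKM in OP mice and 101.56, 39.96 and 64.82 in OR mice. OP mouse 2 was lowest by far, and the other OP mice spanned nearly the same range as the OR mice. The means were 48.2 ± 46.0 in OP and 68.8 ± 31.0 in OR (SD, n = 3), and OP minus OR on the log2 scale was -1.08 ± 0.88 (standard error, limma-trend, adjusted p = 0.945), or -0.02 without OP mouse 2.

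*Hoxb7* and *Hoxb8* ordered the mice alike at the low end. *Hoxb7* had 16.13, 1.86 and 28.69 FPKM in OP and 29.79, 19.51 and 24.35 in OR, and *Hoxb8*, known from spinal cord and microglia, had 6.61, 1.55 and 22.49 in OP and 23.14, 10.96 and 21.26 in OR. The 2 lowest mice of both genes were OP mice 2 and 1, and OP mouse 3 lay among the OR mice. The log2 fold changes were -1.15 (standard error 0.77) and -1.27 (0.73), the latter the largest among the 24 tested Hox genes in OP against OR, and -0.16 and -0.48 without OP mouse 2. The exact permutation p of *Hoxb8* was 0.3 (two-sided). *Hoxb9*, which shapes the ribs with its paralogues, had 12.52, 19.91 and 39.6 in OP and 40.97, 23.08 and 45.07 in OR. Here OP mouse 1 was lowest and OP mouse 2 next, making it the 1 tested HoxB gene whose lowest value was not in OP mouse 2. Its log2 fold change of -0.67 (standard error 0.42) was -0.62 without OP mouse 2 (exact permutation p = 0.2 with all mice, two-sided).

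*Hoxb5*, which acts in the enteric nervous system, had 18.74, 5.72 and 40.09 FPKM in OP mice and 27.43, 14.25 and 19.46 in OR mice. *Hoxb4*, a gene of blood stem cells, had 8.15, 1.57 and 16.56 in OP and 14.25, 8.15 and 8.68 in OR, and *Hoxb3* had 14.32, 3.03 and 24.68 in OP and 24.02, 15.47 and 15.63 in OR. In these 3 genes OP mouse 3 was highest and OP mouse 2 lowest, so the OP mice enclosed all OR mice. The log2 fold changes were -0.23, -0.57 and -0.70 with standard errors of 0.60, 0.64 and 0.62, and 0.46, 0.20 and 0.06 without OP mouse 2. *Hoxb2*, active in the hindbrain, was low throughout, at 2.06, 1.21 and 2.80 in OP and 5.46, 2.28 and 2.86 in OR (log2 fold change -0.56, standard error 0.32, or -0.35 without OP mouse 2). *Hoxb3* and *Hoxb4* overlap in the RefSeq table.

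*Hoxb13*, the tail-end gene of HoxB, went the opposite way to the rest of its cluster. It had 1.29, 46.88 and 0 FPKM in OP mice and 0, 0 and 0.36 in OR mice, so it was listed at 0 in 3 mice and was not tested across genes. In OP mouse 2 it was the Hox gene with the highest value, and without that mouse the OP mean was 0.645. The exact permutation p for OP against OR was 0.4 (two-sided).

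HoxD was lower in OP than in OR in all 6 tested genes (median log2 fold change -0.80, 0 with a q-value below 0.2), and in 4 of them without OP mouse 2 (median -0.15). OP mouse 2 was lowest in all 6. *Hoxd9*, a limb and trunk gene, had 3.78, 0.18 and 3.45 FPKM in OP mice and 5.49, 3.90 and 3.54 in OR mice. The 5 other mice were close together, and OP mouse 2 lay 21-fold below their median. *Hoxd10*, a limb gene, had 4.28, 0.04 and 5.36 in OP and 6.80, 4.96 and 2.60 in OR, and *Hoxd11*, which acts in the forearm and kidney, had 0.80, 0 and 1.19 in OP and 1.23, 0.93 and 0.54 in OR. Both genes were at or next to 0 in OP mouse 2 alone. The log2 fold changes were -0.84 (standard error 0.52), -0.75 (0.68) and -0.25 (0.31), and -0.19, 0.07 and 0.08 without OP mouse 2. *Hoxd10* and *Hoxd11* overlap in the RefSeq table, as do *Hoxd3* and *Hoxd4*.

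*Hoxd8* had 2.76, 0.36 and 5.87 FPKM in OP mice and 6.5, 4.3 and 8.2 in OR mice. With 3.00 ± 2.76 in OP and 6.33 ± 1.96 in OR (SD, n = 3) its log2 fold change was -1.13 with a standard error of 0.55, or -0.49 without OP mouse 2, and an exact permutation p of 0.2 (two-sided). *Hoxd4*, which patterns the neck vertebrae, had 3.15, 0.53 and 14.98 in OP and 8.06, 5 and 13.53 in OR. *Hoxd3*, likewise a neck gene, had 1.19, 0.56 and 4.48 in OP and 2.69, 1.32 and 5.21 in OR. In both genes OP mouse 3 and OR mouse 3 were the highest mice of their groups, and the groups overlapped (log2 fold change -0.99, standard error 0.79, and -0.50, standard error 0.52, or -0.18 and -0.12 without OP mouse 2). *Hoxd13*, a gene of the digits and the anal sphincter, stayed near 0 with 0.16, 0.14 and 0.06 in OP and 0, 0.03 and 0.03 in OR. It was the 1 Hox gene of all 36 in which every OP mouse lay above every OR mouse, at values too low for the test across genes. Its exact permutation p of 0.1 (two-sided) is the smallest this test can give. Among the genes that were tested, 1.63% had all OP mice above all OR mice, and this share was not computed over all genes listed. *Hoxd1* and *Hoxd12*, each listed at 0 in 3 mice, did not exceed 0.12 and 0.03.

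None of the 7 HoxC genes was tested, and their highest value in any mouse was 0.74, for *Hoxc4* in OP mouse 3. *Hoxc6* and *Hoxc10* were listed at 0 in OP mouse 2 only, with 0.30 to 0.73 and 0.20 to 0.54 in the other mice. *Hoxc8*, *Hoxc9* and *Hoxc11* were listed at 0 in 3 or more mice and did not exceed 0.2 in the rest. Of the 36 Hox genes, 26 were above 0 in all 6 mice.

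**Figure D4:**
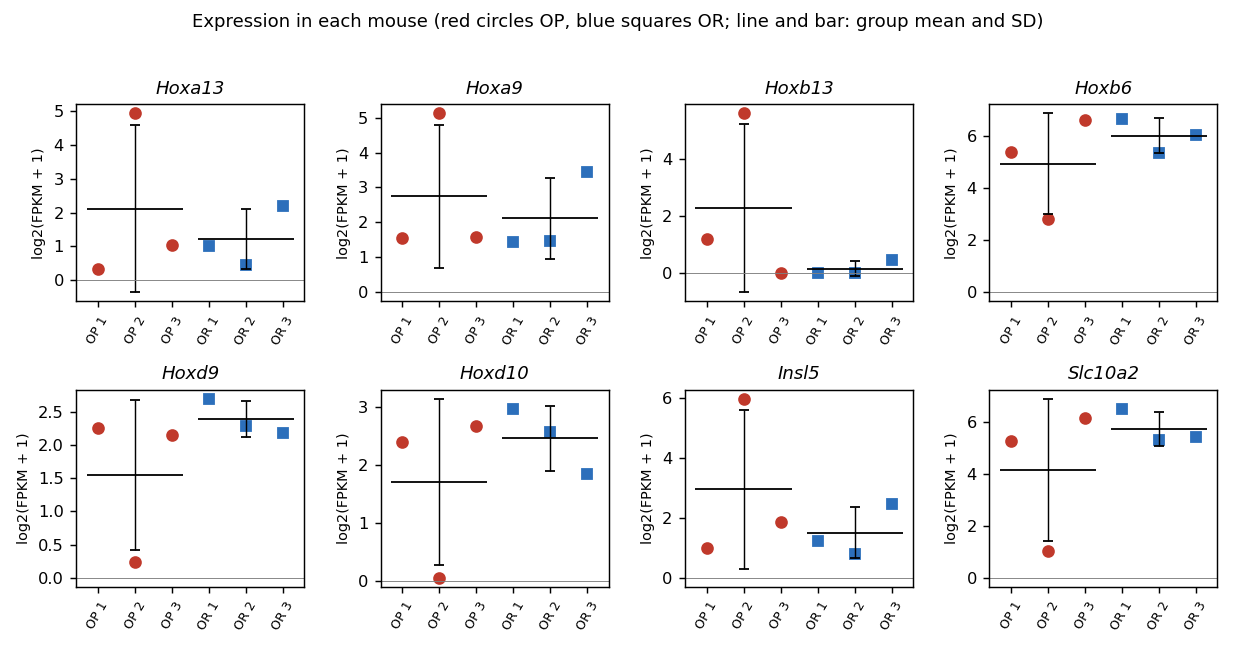
Expression as log2(FPKM + 1) in each mouse for 6 Hox genes and for *Insl5* and *Slc10a2*, with OP mice as red circles, OR mice as blue squares, and the mean and SD of each group (n = 3) as lines and bars. OP mouse 2 is the highest mouse for *Hoxa13*, *Hoxa9*, *Hoxb13* and *Insl5* (61.48 FPKM) and the lowest for *Hoxb6*, *Hoxd9*, *Hoxd10* and *Slc10a2* (1.03 FPKM).

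How far OP mouse 2 stood from the rest was counted after its values had been seen, as a description without a test. It was the highest of the 6 mice in 9 of the 24 tested Hox genes, all in HoxA, and in 13.1% of all genes tested. It was the lowest in 13 of 24, 7 in HoxB and 6 in HoxD, and in 17.2% of all genes. At least 4-fold from the median of the other 5 mice (on FPKM + 1) were 13 of 24 Hox genes, 5 above and 8 below, against 0.799% of all genes. In OP mouse 1 the same count was 1 of 24, and in each of the other 4 mice 0. The median log2 deviation of OP mouse 2 was 2.16 in HoxA, -1.98 in HoxB and -2.18 in HoxD. A smaller deviation was found in OR mouse 3, which was second highest in 8 of the 10 tested HoxA genes, with a median log2 deviation of 1.03. OP mouse 1 was the lowest mouse in 54.1% of all genes and in 8 of the 24 Hox genes, 7 of them in HoxA.

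Genes outside the Hox family that are known to vary along the gut were compared in the same mice. *Insl5*, a hormone of enteroendocrine cells in the distal colon, had 1.00, 61.48 and 2.63 FPKM in OP mice and 1.35, 0.75 and 4.50 in OR mice. OP mouse 2 was highest and OR mouse 3 next, as for *Hoxa9* and *Hoxa13*. *Cldn8*, a tight junction gene of the distal colon, had 2.43, 27.7 and 12.75 in OP and 13.35, 7.48 and 23.81 in OR, with the same mice on top. *Scnn1b*, a subunit of the epithelial sodium channel, had 0.24, 0.72 and 0.74 in OP and 0.37, 1.07 and 2.81 in OR, where OP mouse 2 did not stand out, and *Scnn1g*, another subunit, stayed at or below 0.16. Of these 3 tested genes 1 was higher and 2 were lower in OP, 0 with an unadjusted p below 0.05. The log2 fold changes were 1.44 (standard error 1.197) for *Insl5*, -0.39 (0.75) for *Cldn8* and -0.51 (0.37) for *Scnn1b*, with adjusted p of 0.945 to 0.957 (limma-trend). Without OP mouse 2 that of *Insl5* turned to -0.07, and those of *Cldn8* and *Scnn1b* were -1.07 and -0.59. *Prac1* was not analysed here.

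In the other direction, *Slc10a2*, the bile acid transporter of the ileum, had 37.05, 1.03 and 71.01 FPKM in OP mice and 88.76, 38.34 and 41.47 in OR mice. *Fabp6*, which binds bile acids inside cells, had 7, 1.03 and 35.11 in OP and 74.19, 11.17 and 45.9 in OR. OP mouse 2 was lowest in both, as in HoxD and most of HoxB. *Car1*, an abundant carbonic anhydrase of the colon lining, had 1054 in OP mouse 2 and 4836 to 15723 in the other mice. Of the 4 small intestine genes tested, 1 was higher and 3 were lower in OP, and of the 8 colon genes 5 were higher and 3 lower, 0 in either list with an unadjusted p below 0.05. The directions numbered the same in both lists without OP mouse 2. The log2 fold change of *Slc10a2* was -1.58 with that mouse and -0.02 without it, and that of *Fabp6* -2.06 and -1.04. *Evx1*, a homeobox gene beside *Hoxa13*, had 2.34 in OP mouse 2 and at most 0.13 in the other mice. Noncoding RNAs of the Hox clusters were not analysed here. Whether the stretch of colon sampled differed between the mice was not tested.

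Genes that work with Hox proteins or set their expression were counted in the same way. Of the 9 cofactor genes of the Pbx, Meis and Pknox families, whose proteins bind DNA together with Hox proteins, 8 were tested. All 8 were lower in OP, as were 70.1% of all genes tested, at a median of -0.22 on the log2 scale. With an unadjusted p below 0.05 there were 0. Without OP mouse 2, 1 was higher and 7 were lower (median -0.28), and the median was -0.098 without OR mouse 1 and -0.34 without OP mouse 3 or OR mouse 2. *Meis1* had 3.79, 3.24 and 4.62 FPKM in OP mice and 7.02, 4.74 and 4.58 in OR mice, with a log2 fold change of -0.39 (standard error 0.22), and *Meis2* had 4.79 ± 0.615 and 6.09 ± 1.43 (SD, n = 3), with -0.28 (0.21), and these were -0.29 and -0.28 without OP mouse 2. With median-of-ratios scaling the 8 genes remained lower, at a median of -0.10, where 48% of all genes were lower. Of 26 regulators of Hox expression (Cdx factors, Polycomb and Trithorax members, retinoic acid receptors and enzymes) 23 were tested, 5 higher and 18 lower in OP (8 and 15 with median-of-ratios scaling), with a median of -0.15. Without OP mouse 2 these counts were 7 and 16 (median -0.19). They moved to 10 and 13 without OP mouse 1, the lowest mouse in most genes (median -0.033), and the median was -0.26 without OP mouse 3 and -0.085 without OR mouse 1. With all mice none had an unadjusted p below 0.05. *Aldh1a3*, which makes retinoic acid, had 1.14, 0.35 and 2.69 in OP and 2.87, 3.62 and 2.31 in OR, and was lowest in OP mouse 2 (log2 fold change -0.82, standard error 0.36, or -0.47 without that mouse). *Suz12*, a Polycomb subunit, had 17.5 ± 1.60 in OP and 20.6 ± 1.70 in OR (SD, n = 3), with a log2 fold change of -0.22, or -0.19 without OP mouse 2.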

How the data were processed

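After read filtering with SOAPnuke and alignment to a mouse gene set with Bowtie2, the authors estimated expression with RSEM. They deposited FPKM with 2 decimals, in 1 column per mouse. The methods and the labels state different versions of these tools and different gene sets, and the labels also name HISAT2. How fragments of overlapping genes were divided is not given in the sources used here. The authors' own test, DESeq2, needs counts and was not run.

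Samples were grouped by their labels. Genes reaching 0.5 FPKM in 3 or more mice were tested on log2(FPKM + 1) by limma-trend, using limma 3.58.1 under R 4.3.3, with no covariate and with Benjamini-Hochberg q-values over all 13520 genes. Fold changes on this scale understate the change of low genes. Counts of genes higher or lower in OP follow this scale. Of the tested Hox genes counted as lower, *Hoxa3* and *Hoxb5* had a higher mean FPKM in OP than in OR. Single genes were compared with exact permutation tests (SciPy 1.17.1). The script was tested on simulated data. All Hox genes passing the filter were named, and also *Hoxa13*, *Hoxb13* and *Hoxd13*. Other Hox genes were named where listed at 0, distal markers where tested, and other lists by up to 4 examples with the smallest p. Marker genes outside this rule, *Hoxc4*, *Evx1* and *Scnn1g* were named after their values were seen. Some genes are not reported here. Members and lists were chosen with earlier results of these data known. Replicate numbers belong to different mice. Alternatives were other scalings, pseudocount, filters, weights, a replicate block and each mouse left out.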

Additional observations from a re-analysis of the deposited data

How the results depend on the processing

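Calls of 0 Hox genes by fold change and q-value held under all 14 alternatives, and so did the negative sign of the median log2 fold change, which lay between -0.79 and -0.19 when each mouse was left out. The difference OP minus OR in the mean paralogue number ranged from -0.25 to 1.19 and that in the posterior share from -4.96 to 19.1 percentage points with each mouse left out, both turning sign without OP mouse 2. With all mice the difference in the mean paralogue number was 0.38 over tested Hox genes only. It was 0.34 with log2(FPKM + 1) as weights and 0.61 without *Hoxb6*. At an unadjusted p below 0.05, 1 of 36 Hox genes (*Hoxd13*) was higher with no filter, against 133 of all 17775 genes. With each mouse left out 0 to 1 were higher, the 1 being *Hoxa5* without OP mouse 1, against 97 of all 13453 genes. Lower were 4 of 24 with limma sample weights (*Hoxb7*, *Hoxb8*, *Hoxd8*, *Hoxd9*), against 656 of all 13520 genes, and 0 to 6 with each mouse left out. The 6 were *Hoxb6* to *Hoxb9*, *Hoxd4* and *Hoxd8* without OP mouse 3, against 1094 of all 13340 genes. With the replicate block 3 were lower (*Hoxb8*, *Hoxd4*, *Hoxd8*), against 409 of all 13520 genes. The deviations of same-numbered OP and OR mice from their group means correlated at -0.144, -0.157 and 0.0709 for numbers 1, 2 and 3. Those of differently numbered mice correlated at -0.464 to 0.537. Whether same-numbered mice shared more than a number was not tested. *Hoxa3* turned to 0.016 with median-of-ratios scaling and to 0.22 with sample weights. With each mouse left out, the sign turned in 14 of 24 genes. Their log2 fold changes ranged from -0.22 to 0.70 (*Hoxa2*), -0.68 to 0.56 (*Hoxa3*), -0.34 to 0.031 (*Hoxa4*), -0.19 to 1.35 (*Hoxa6*), -0.014 to 1.31 (*Hoxa7*), -0.56 to 1.30 (*Hoxa9*), -0.58 to 0.81 (*Hoxa10*), -0.42 to 0.050 (*Hoxa11*), -0.52 to 1.77 (*Hoxa13*), -1.27 to 0.062 (*Hoxb3*), -1.19 to 0.20 (*Hoxb4*), -0.85 to 0.46 (*Hoxb5*), -1.23 to 0.073 (*Hoxd10*) and -0.49 to 0.080 (*Hoxd11*). The cause of these changes was not tested. Counting error is unknown, since the depth is, and values near 0.05 are coarse at 2 decimals.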
